A study of Mus musculus with 12 samples.

Results

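Mouse testis RNA sequencing was used to describe the genes for collagens, laminins and other basement membrane proteins after delivery of a virus made to overexpress or inhibit a long noncoding RNA, lncRNA8276. Members were every gene whose symbol is that of a collagen chain or a laminin chain, together with Nid1, Nid2, Hspg2, Agrn, Fn1 and Sparc. This rule reads names and no measured value, but the members were chosen with earlier results of these data known. The table of 20718 genes held 61 of them: 44 collagen chains, 11 laminin chains and 6 partner proteins. Of these, 59 passed the filter on low counts and were tested, among 16320 genes tested in all. Col10a1, with 10 reads over all 12 libraries, and Col9a2, with 20 reads, did not pass.

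The 12 libraries came from testes of F0 mice of a strain given as IRC mouse, with 3 libraries per group: 8276OV, given a virus that overexpresses lncRNA8276; 8276KD, given a virus that inhibits it; 5NC; and 3NC. What 5NC and 3NC stand for is not written out in the labels, which also give no age, virus type or interval. Whether each library is its own animal is not given either, and the p-values cover the spread between libraries only, which may be technical. 8276OV was set against 5NC and 8276KD against 3NC; this pairing is inferred from the order of the groups in the design statement and the usual naming of such vectors. LncRNA8276 itself was not analysed here. Libraries held 15448442 to 16355720 estimated reads, and the summed level of 8 germ cell markers (Prm1 and Tnp1 among them) was 18350 to 21500 FPKM in each.

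A basement membrane is a thin sheet of matrix. Laminins, trimers of an alpha, a beta and a gamma chain, form its first network at the cell surface, type IV collagen forms a cross-linked network beside it, and nidogens and the proteoglycans perlecan (Hspg2) and agrin link them. In the testis this sheet surrounds the seminiferous tubules, where Sertoli cells lie on its inner face and peritubular myoid cells on its outer face; fibrillar and FACIT collagens belong to the interstitial matrix around it. In bulk tissue, fewer cells of a type and less RNA per cell cannot be told apart.

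Sequence is shown at 3 places where members start: the pair Col4a1 and Col4a2, which start head to head, Col16a1, the member of smallest p in 8276OV against 5NC, and Nid1, whose levels did not overlap between groups in 2 comparisons. All are RefSeq sequences of build GRCm38.p6, plus strand, 5′ to 3′; capitals mark a GC box (GGGCGG) or a CCAAT box (CCAAT), on either strand.
Col4a1 and Col4a2, between their starts, chr8:11312805-11312826: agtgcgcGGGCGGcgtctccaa
Col16a1, upstream, chr4:130047590-130047816: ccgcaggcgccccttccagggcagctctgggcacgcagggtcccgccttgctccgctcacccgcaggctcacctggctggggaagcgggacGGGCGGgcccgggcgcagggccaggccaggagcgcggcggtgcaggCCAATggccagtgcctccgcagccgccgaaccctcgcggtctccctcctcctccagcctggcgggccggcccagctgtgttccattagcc
Nid1, upstream, chr13:13437352-13437550: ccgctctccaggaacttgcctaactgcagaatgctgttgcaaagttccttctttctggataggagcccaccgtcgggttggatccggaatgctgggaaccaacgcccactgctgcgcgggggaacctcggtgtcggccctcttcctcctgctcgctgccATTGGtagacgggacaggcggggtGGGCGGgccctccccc

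RefSeq windows of 300 bases around a start were at hand for 44 of the 61 members, as 49 windows. GGGCGG stood on either strand in 30 of them (61.2%), against 35.7% of all 32851 windows. CCAAT was in 30.6% of member windows and 37.4% of all windows, TATAAA in 10.2% and 13.6%, and CACGTG in 0 of the 49 and 7.15% of all. These are matches of letters, with no measure of binding, and the GC content of the windows was not taken into account.

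Levels are given as FPKM, reads scaled to gene length and library total, the unit inferred for the authors' normalised values; within each group values run from replicate 1 to replicate 3. Members spanned a wide range, with a median of 1.87 FPKM over the 61 gene means. Only 4 averaged over 10 FPKM over the 12 libraries: Sparc, Col22a1, Col16a1 and Col20a1. Another 34 averaged 1 to 10 FPKM, and 23 averaged under 1 FPKM.

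Sparc encodes a secreted glycoprotein that binds collagens and calcium, and was the most abundant member, above 94.7% of all genes. It had 111, 94.9 and 89.9 FPKM in 8276OV libraries, 96.3, 109 and 101 FPKM in 8276KD, 185, 109 and 101 FPKM in 5NC, and 99.1, 97.2 and 101 FPKM in 3NC. One library, 5NC replicate 1, stood far above the other 11, which lay between 89.9 and 111 FPKM. Fn1, fibronectin, a cell-adhesive glycoprotein, had 2.19, 2.65 and 1.98 FPKM in 8276OV, 2.46, 2.37 and 2.32 in 8276KD, 2.79, 2.16 and 2.6 in 5NC, and 2.29, 1.98 and 2.35 in 3NC, so all 4 groups overlapped.

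FACIT collagens, which sit on the surface of fibrils or at tissue junctions, held the next 3 places. Col22a1, known for tissue junctions such as that of muscle and tendon, had 66.7, 63.8 and 56.3 FPKM in 8276OV, 67.9, 66 and 71.4 in 8276KD, 55.8, 62.4 and 60.3 in 5NC, and 64.5, 58.1 and 64.2 in 3NC. Its libraries lay between 55.8 and 71.4 FPKM. Col16a1 had 32.2, 41.4 and 35.6 FPKM in 8276OV, 41.2, 35.9 and 42.5 in 8276KD, 49.3, 44.1 and 41.6 in 5NC, and 34.7, 37.7 and 42.1 in 3NC. Col20a1 averaged 10.9 FPKM and Col9a3 6.53 FPKM, whereas Col14a1, Col12a1, Col9a1 and Col19a1 averaged 1.92, 1.49, 1.14 and 0.481 FPKM. The type IX chains, which assemble together in cartilage, were uneven: Col9a3 against 1.14 FPKM for Col9a1 and 0.0392 FPKM for Col9a2. Col9a2 had 1 read in 8276OV, 0 in 8276KD, 8 in 5NC and 11 in 3NC, over 3 libraries each, and was not tested. Exons of Col22a1, Col9a3 and Col20a1 overlap annotated exons of another gene, and 19 members have such an overlap in all; since the strandedness of the libraries is not given in the sources used here, reads of Col22a1 and its antisense gene Gm16308, or of Col9a3 and Tcfl5, cannot be told apart.

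Fibrillar collagens form the load-bearing fibrils of connective tissue, and their 11 chains averaged 0.179 FPKM (Col5a3) to 7.09 FPKM (Col1a2). Col1a2, a chain of type I collagen, had 10.8, 5.69 and 5.6 FPKM in 8276OV, 6.34, 7.34 and 7.12 in 8276KD, 9.72, 4.72 and 7.51 in 5NC, and 6.79, 7.4 and 6.04 in 3NC. Its spread lay inside 8276OV and 5NC, each of which held a library above and a library below every 8276KD and 3NC value. Its partner chain Col1a1 was lower, at a Col1a2 to Col1a1 ratio of 2.03 to 3.44 over the 12 libraries. Col2a1, best known from cartilage, had 4.96, 6.46 and 6.43 FPKM in 8276OV, 6.5, 6.29 and 7.47 in 8276KD, 6.68, 6.47 and 7.38 in 5NC, and 4.16, 4.89 and 7.49 in 3NC. Of 8 cartilage and skeletal muscle markers, 2 passed the filter on low counts. Comp, a cartilage matrix protein, was high, at 93.6 ± 11.5 FPKM in 8276OV, 106 ± 2.8 FPKM in 8276KD, 101 ± 7.77 FPKM in 5NC and 93.7 ± 13.4 FPKM in 3NC (SD, n = 3 each), and made up nearly all of the summed level of the 8 markers, 78.9 to 110.3 FPKM per library. Acan, the cartilage proteoglycan aggrecan, averaged 0.127 FPKM in 5NC and 0.1 FPKM in 3NC. The part of such cells in the level of Col2a1 was not tested.

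Type IV collagen, the network of the basement membrane, was led by Col4a1 and Col4a2, whose chains assemble together. They lie on opposite strands of chromosome 8, and the starts used for the stretch printed above are 11312805 for Col4a2 and 11312826 for Col4a1. By these starts the 22 printed bases lie within both genes. Exons of Col4a1 and Col4a2 are also annotated as overlapping. Col4a1 (chr8:11198423-11312889 in mm10) had 4.7, 2.81 and 2.42 FPKM in 8276OV, 2.64, 2.93 and 2.58 in 8276KD, 5.18, 2.65 and 2.99 in 5NC, and 4.27, 4.03 and 4.39 in 3NC. Libraries of 3NC lay together and above all 3 of 8276KD, and replicate 1 of 8276OV and of 5NC stood above the other libraries of their groups. Col4a2 had 3.62, 2.76 and 2.22 FPKM in 8276OV, 2.25, 2.6 and 2.19 in 8276KD, 4.07, 2.58 and 3.04 in 5NC, and 2.93, 3.17 and 2.69 in 3NC. Their ratio, Col4a2 to Col4a1, ran from 0.613 to 1.02, with a median of 0.851. It was 0.77 to 0.982 in 8276OV, 0.849 to 0.887 in 8276KD, 0.786 to 1.02 in 5NC and 0.613 to 0.787 in 3NC. Col4a3 and Col4a4, chains of a second type IV network, averaged 1.24 and 2.26 FPKM, and the X-linked pair Col4a5 and Col4a6, whose starts lie 1343 bases apart, 0.873 and 0.678 FPKM.

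Among laminin chains the largest means were those of the beta chain Lamb2 (6.44 FPKM), the gamma chain Lamc3 (3.13 FPKM) and the alpha chain Lama2 (2.98 FPKM). Lama2, the alpha chain best known from muscle, had 3.4, 2.82 and 3.24 FPKM in 8276OV, 3.22, 2.84 and 2.78 in 8276KD, 3.2, 2.88 and 2.96 in 5NC, and 2.63, 3.2 and 2.63 in 3NC. Lama1, the alpha chain of the laminin of early embryos, had 2.17, 1.69 and 1.53 FPKM in 8276OV, 1.69, 1.79 and 1.59 in 8276KD, 3.22, 1.73 and 2.01 in 5NC, and 1.7, 1.64 and 1.7 in 3NC. Lama2 varied little, while Lama1 had 1 library, 5NC replicate 1, well above the rest. Lamb2 had 7.01, 5.25 and 4.84 FPKM in 8276OV, 5.86, 6.64 and 5.13 in 8276KD, 11.2, 6.26 and 6.69 in 5NC, and 6.19, 5.97 and 6.16 in 3NC. Lamb1, its paralogue, had 2.9, 2.24 and 2.85 FPKM in 8276OV, 3.12, 2.82 and 2.55 in 8276KD, 3.75, 2.27 and 3.13 in 5NC, and 2.74, 2.76 and 2.42 in 3NC. Both beta chains had their highest value in 5NC replicate 1, and Lamb2 exceeded Lamb1 by 1.7 to 2.99-fold in each library. Lamc3 had 2.68, 2.73 and 2.35 FPKM in 8276OV, 2.95, 3.28 and 3.13 in 8276KD, 5.98, 2.51 and 3.69 in 5NC, and 3.3, 2.52 and 2.43 in 3NC. Lamc1, the widespread gamma chain, had 1.9, 1.42 and 1.51 FPKM in 8276OV, 1.8, 1.67 and 1.38 in 8276KD, 2.37, 1.28 and 2.16 in 5NC, and 1.63, 1.8 and 1.53 in 3NC. Lama4, Lama5 and Lama3 averaged 0.794, 0.612 and 0.538 FPKM, and Lamb3, a chain of epithelial laminin, 1.98 FPKM.

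Nid1, nidogen, bridges laminin and type IV collagen. Nid1 (chr13:13437602-13512275 in mm10) had 4.46, 4.28 and 4.43 FPKM in 8276OV, 4.58, 4.46 and 4.13 in 8276KD, 4.18, 4 and 3.7 in 5NC, and 5.03, 5.15 and 4.4 in 3NC, from 3.7 to 5.15 FPKM in all. Nid2, its relative, had 1.68, 1.43 and 2.09 FPKM in 8276OV, 2.32, 1.66 and 1.93 in 8276KD, 4.18, 1.37 and 2.24 in 5NC, and 2.5, 1.73 and 2.96 in 3NC. Nid2 shares exon bases with Rtraf on the opposite strand, and both nidogens had fractional estimated reads. Hspg2 averaged 1.88 FPKM and Agrn 1.27 FPKM.

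Col15a1 and Col18a1 encode multiplexins, collagens of the outer face of basement membranes, and Col18a1 is the source of endostatin. Col15a1 had 5.63, 4.65 and 4.57 FPKM in 8276OV, 4.36, 5.37 and 4.67 in 8276KD, 5.24, 4.85 and 5.08 in 5NC, and 4.87, 4.85 and 4.89 in 3NC. Col18a1 had 2.51, 2.73 and 2.51 FPKM in 8276OV, 3.23, 3.85 and 2.86 in 8276KD, 7.95, 3.17 and 2.81 in 5NC, and 3.07, 2.9 and 2.89 in 3NC. Col15a1 was even across the libraries, whereas Col18a1 again had a single high library, 5NC replicate 1.

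Type VI collagen forms beaded filaments next to basement membranes. Col6a1, one of its common chains, had 4.35, 2.31 and 2.98 FPKM in 8276OV, 2.8, 3.71 and 3.33 in 8276KD, 5.02, 2.61 and 3.96 in 5NC, and 3.7, 3.08 and 3.3 in 3NC. Col6a4 had 4.35, 2.22 and 3.12 FPKM in 8276OV, 2.41, 2.65 and 3.39 in 8276KD, 3.5, 4.36 and 3.61 in 5NC, and 2.74, 2.25 and 3.55 in 3NC. Neither separated a treated group from the control set beside it. Col6a2, Col6a3, Col6a5 and Col6a6 averaged 2.18, 0.895, 0.883 and 0.271 FPKM. Summed reads of the neighbouring genes Col6a5 and Col6a6 were fractional in 3NC alone (427.8 and 80.2), out of 1528.8 and 345.2 over all libraries.

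The remaining collagens were mostly low. Col26a1, a small collagen first described in testis and ovary, was the exception, with 5.02, 5.1 and 4.03 FPKM in 8276OV, 5.75, 6.58 and 5.92 in 8276KD, 5.75, 6.74 and 5.61 in 5NC, and 5.33, 4.23 and 5.17 in 3NC. Col28a1 had 2.18, 0.7 and 1.07 FPKM in 8276OV, 1.37, 1.24 and 1.34 in 8276KD, 1.58, 1.1 and 1.13 in 5NC, and 0.79, 1.17 and 0.98 in 3NC. Transmembrane collagens span the plasma membrane; Col23a1 had 1.37, 1.18 and 0.94 FPKM in 8276OV, 1.08, 1.2 and 1.44 in 8276KD, 1.02, 1.51 and 1.2 in 5NC, and 1.27, 1.1 and 1.13 in 3NC. Col17a1, of epithelial hemidesmosomes, had 0.63, 0.67 and 0.62 FPKM in 8276OV, 0.82, 0.69 and 0.98 in 8276KD, 0.74, 0.61 and 1.12 in 5NC, and 0.91, 0.71 and 0.85 in 3NC. Col23a1 overlapped between all groups, and Col17a1 did so in both treated comparisons. Col13a1 and Col25a1 averaged 0.181 and 0.14 FPKM. Col8a1, of the hexagonal network collagens, had 0.56, 0.45 and 0.41 FPKM in 8276OV, 0.42, 0.29 and 0.4 in 8276KD, 0.38, 0.47 and 0.4 in 5NC, and 0.42, 0.41 and 0.42 in 3NC. Col7a1, the anchoring fibril collagen of skin, had 0.34, 0.32 and 0.31 FPKM in 8276OV, 0.31, 0.33 and 0.45 in 8276KD, 0.4, 0.41 and 0.32 in 5NC, and 0.3, 0.33 and 0.24 in 3NC.

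**Figure D1:**
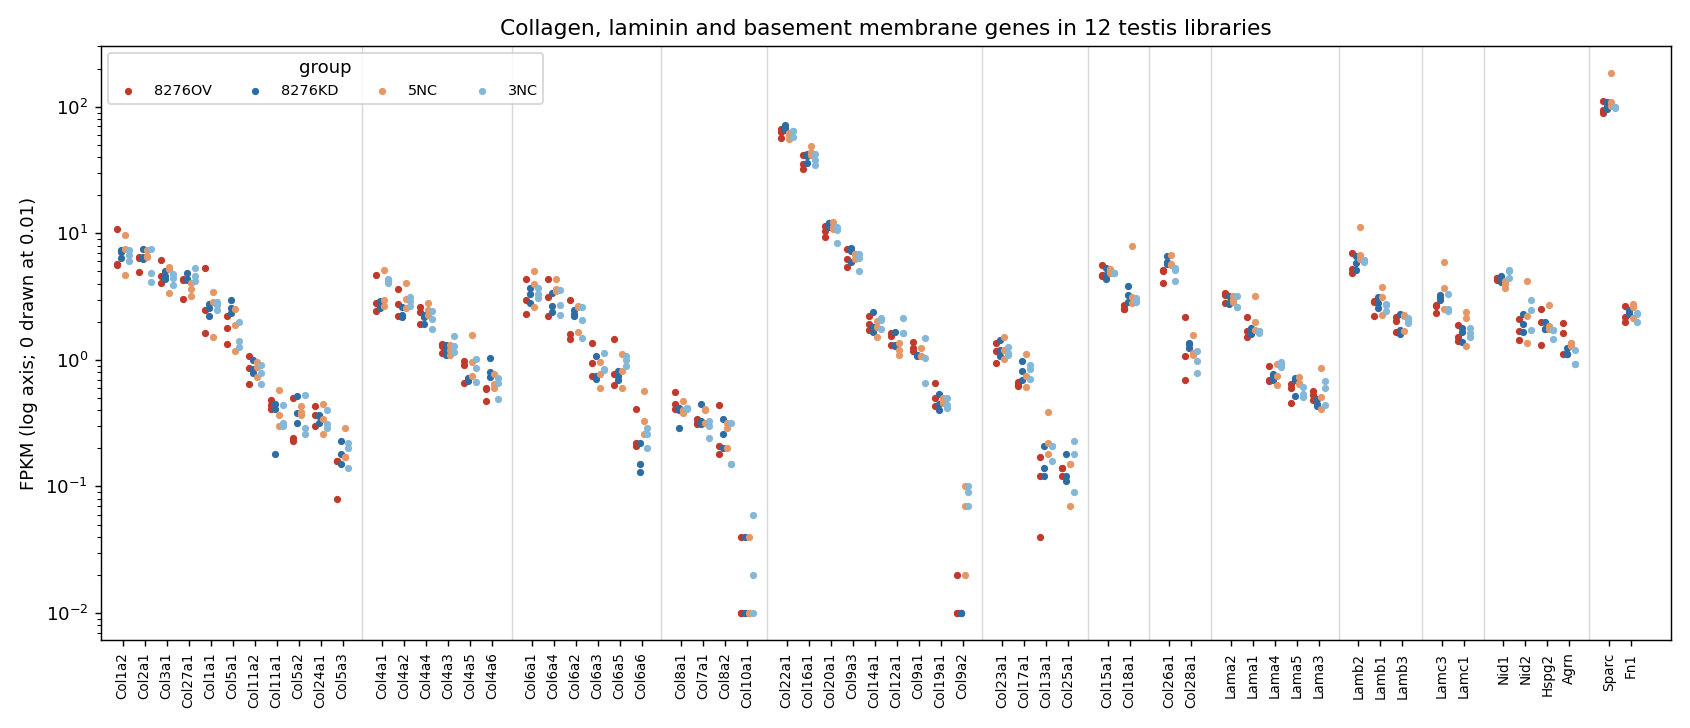
FPKM (log axis, with 0 drawn at 0.01) of 60 members in the 12 libraries, coloured by group and ordered by role and then by mean level; each point is a library. Sparc, Col22a1, Col16a1 and Col20a1 lie at the top, and the single high 5NC points at Sparc, Col18a1, Lamb2, Lamc3 and Nid2 are replicate 1.

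Single libraries stood apart in these genes before any comparison of groups. The library 5NC replicate 1 held the highest value of 19 of the 59 tested members (32.2%), against 17.7% of all genes tested. Those 19 were 4 type IV chains, Lama1, Lama3, Lamb1, Lamb2, Lamc1, Lamc3, Nid2, Hspg2, Sparc, Col18a1, Col6a1, Col6a6, Col11a1, Col13a1 and Col16a1. The library 8276OV replicate 1 held the highest value of 14 members (23.7%), against 8.33% of all genes, and these were a different set, with Col1a1, Col1a2, Col3a1, Col11a2, Col6a2, Col6a3, Col6a5, Col8a1, Col8a2, Col15a1, Col28a1, Lama2 and Agrn among them. Col1a1, the other chain of type I collagen, reached 5.33 FPKM there, against at most 3.43 FPKM elsewhere. At the low end, 5NC replicate 2 held the lowest value of 13 members (22.0%), against 9.21% of all genes, and 8276OV replicate 3 that of 11 (18.6%), against 12.2%. Col1a1, Col1a2 and Col3a1 were lowest in 5NC replicate 2, and Sparc, Lamb2 and Lamc3 in 8276OV replicate 3.

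Marker genes of other cells moved with these libraries. In 5NC replicate 1 the summed level of 10 Sertoli markers was 970 FPKM, against 461 to 638 FPKM in the other libraries, and that of 7 Leydig markers was 4386 FPKM, against 1809 to 2699 FPKM. In 8276OV replicate 1 the sum of 9 macrophage markers was 134 FPKM, against 40.7 to 81.4 FPKM elsewhere. Summed epididymis and fat markers were 121 and 113 FPKM in 5NC replicates 2 and 3, against 15.4 to 28.7 FPKM in the other 10 libraries. All 7 to 10 markers in each of these lists had reads in at least 1 library, and the part of these cells in the results below was not tested. In the first principal component of all genes (19.1% of the variance) 8276OV replicates 1 and 3 and 3NC replicate 2 stood farthest from the rest.

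**Figure D2:**
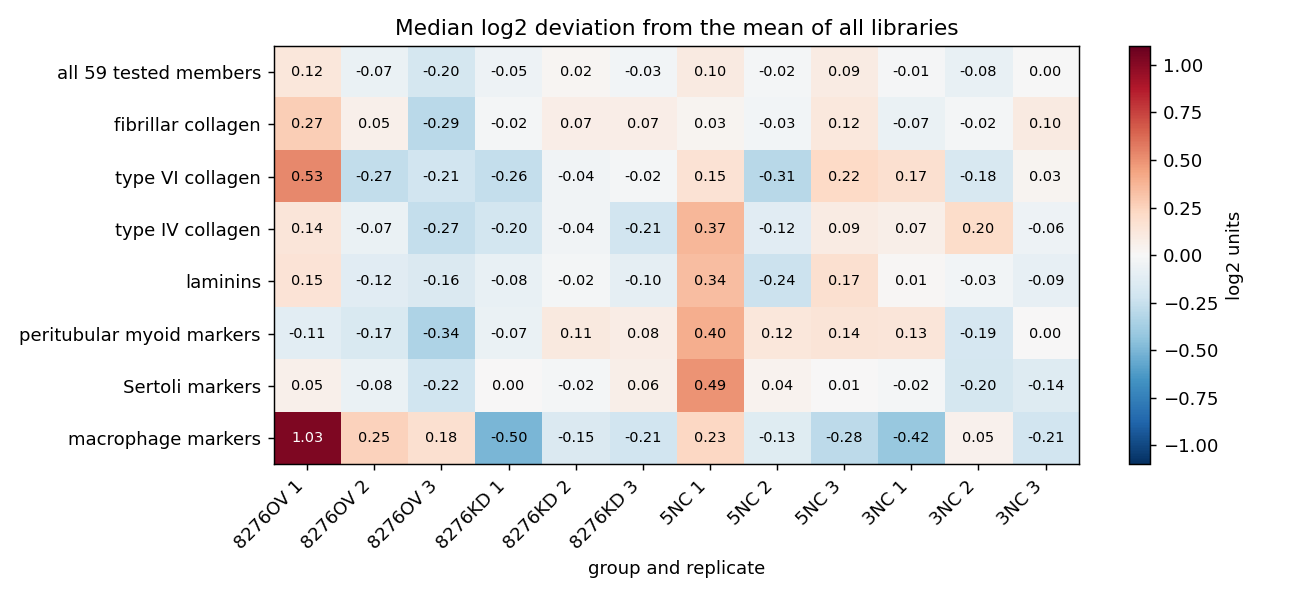
Median deviation of each gene list from its mean over the 12 libraries, in log2 units of CPM + 0.5, with lists in rows and libraries in columns (red above, blue below). Laminins and type IV collagens are highest in 5NC replicate 1 (0.34 and 0.37) with the Sertoli markers (0.49), and type VI collagens are highest in 8276OV replicate 1 (0.53) with the macrophage markers (1.03).

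**Figure D3:**
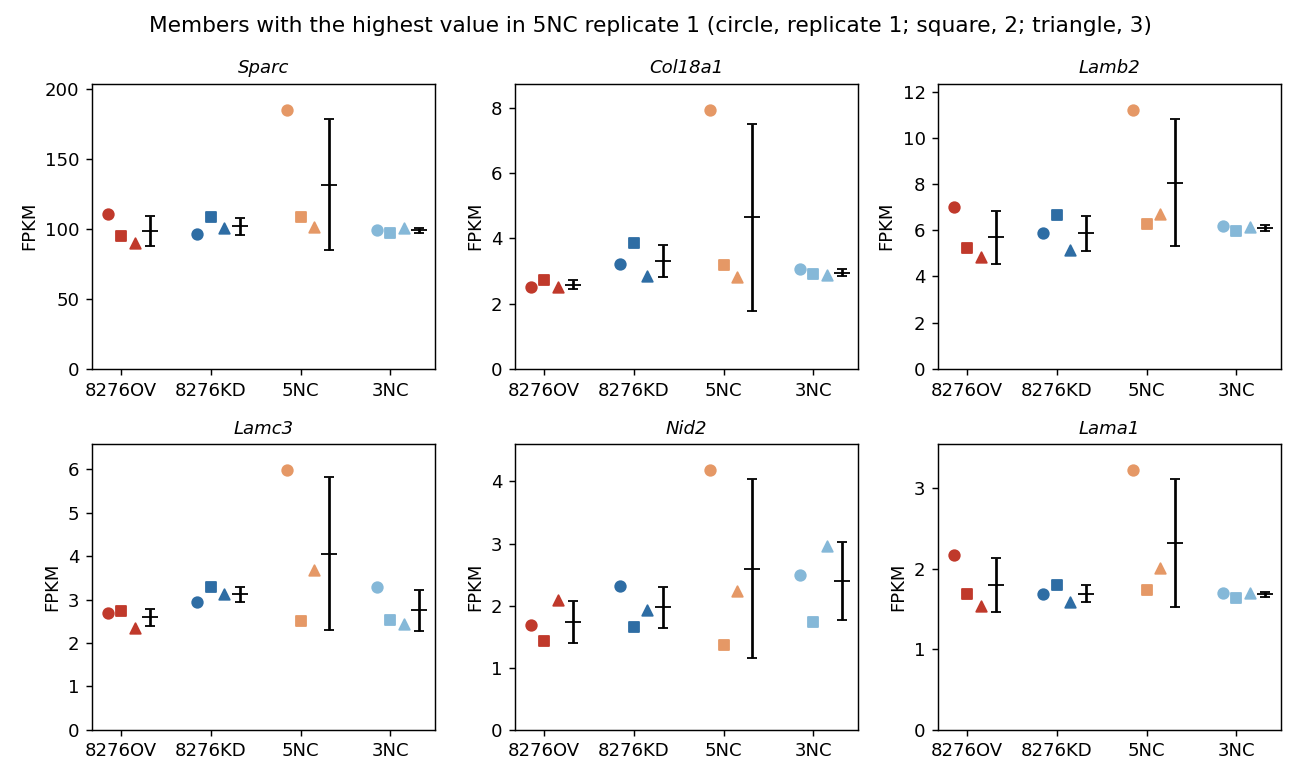
FPKM of 6 members in each library by group (circle, replicate 1; square, 2; triangle, 3), with bars for the mean ± SD of 3 libraries. The 6 were picked from the 19 members whose highest value is in 5NC replicate 1. By that choice the circle of 5NC lies above all other points in each panel, as for Sparc at 185 FPKM.

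The overexpressing virus was set against 5NC first, and no member passed the test. Of the 59 tested members, 0 were called by edgeR's quasi-likelihood test at a Benjamini-Hochberg adjusted p under 0.05, and of all genes 0 (0%); DESeq2 called 50 genes and limma 0. At an unadjusted p under 0.05 there were 8 members, 1 higher and 7 lower (1697 of all genes), and DESeq2 and limma each called 0 members. Fold changes were below 0 for 36 members (61%, against 50.3% of all genes) and above 0 for 23 (39%, against 49.7%), with a median log2 fold change of −0.08 over members and −0.002 over all genes. The 7 lower at an unadjusted p under 0.05 were 11.9% of members, against 4.79% of all genes, and the 1 higher was 1.69%, against 5.61%. They numbered 2 without 5NC replicate 1 or without 8276OV replicate 3, 11 without 8276OV replicate 1 and 12 without 5NC replicate 2. The choice of control is inferred, and against 3NC there was 1 member lower and 1 higher at that p, with 30 members below 0, 29 above and a median of −0.0006.

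Col16a1 had the smallest p, at 36.4 ± 4.63 FPKM in 8276OV and 45 ± 3.95 FPKM in 5NC (SD, n = 3 libraries each), a log2 fold change of −0.29 ± 0.1 (SE, adjusted p = 0.415 by edgeR). Its groups did not overlap, and 3NC was at 38.2 ± 3.72 FPKM. Lamc3 averaged 2.59 ± 0.207 FPKM in 8276OV and 4.06 ± 1.76 FPKM in 5NC (log2 fold change −0.62 ± 0.22, adjusted p = 0.419 by edgeR), and Col18a1 averaged 2.58 ± 0.127 FPKM in 8276OV and 4.64 ± 2.87 FPKM in 5NC (−0.79 ± 0.3, adjusted p = 0.437 by edgeR). The large SD in 5NC came from replicate 1. Lamb2 (−0.47 ± 0.18), Sparc (−0.39 ± 0.16), Col26a1 (−0.34 ± 0.14) and Col13a1 (−1.14 ± 0.46, from 111 reads in all) completed the 7, each at an adjusted p of 0.437 or 0.444 by edgeR. Without 5NC replicate 1, log2 fold changes were −0.22 for Col18a1, −0.2 for Lamb2, −0.27 for Lamc3 and −0.11 for Sparc. Col13a1 was −0.72 without 8276OV replicate 2. Against 3NC in place of 5NC all 7 were nearer to 0, at −0.08 for Col16a1, −0.1 for Lamc3, −0.2 for Col18a1, −0.11 for Lamb2, −0.01 for Sparc, −0.07 for Col26a1 and −0.68 for Col13a1.

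On the higher side were Col12a1, a FACIT collagen of type I fibrils (0.33 ± 0.14, adjusted p = 0.444 by edgeR), Nid1 (0.17 ± 0.09, adjusted p = 0.505) and Col6a3, the large chain of type VI collagen (0.39). Col6a3 had 1.35, 0.95 and 0.74 FPKM in 8276OV, 0.71, 1.07 and 0.75 in 8276KD, 0.78, 0.6 and 0.97 in 5NC, and 1.14, 0.83 and 0.85 in 3NC, and 8276OV overlapped 5NC. Without 8276OV replicate 1 the value for Col6a3 was 0.14, and without 5NC replicate 2 it was 0.25. Against 3NC it was 0.105. By CPM, Nid1 was the only member whose 8276OV libraries all lay above those of 5NC (1.69% of members, against 7.64% of all genes). The reverse held for 6 members (10.2%, against 7.56% of all genes): Col16a1, Col18a1, Col13a1, Col26a1, Col5a3 and Col4a6. In FPKM the Col4a6 values of these groups met at 0.6.

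By role, both multiplexins, all 3 laminin beta chains, 4 of 5 laminin alpha chains and 5 of 6 type IV chains had fold changes below 0. Above 0 were 7 of 11 fibrillar and 5 of 8 FACIT collagens. Of all genes, 50.3% lay below 0 and 49.7% above. These counts include values near 0, such as Col15a1 (−0.01), Lama4 (−0.009) and Lamb3 (−0.06). Replicate numbers paired 8276OV and 5NC libraries weakly. With the replicate number as a block in a fit of these 2 groups, 215 of 15950 genes (1.35%) and 1 member were called, Lamb2 (−0.46, adjusted p = 0.0217 by edgeR); the same block in the fit of all 4 groups called 0. The median over members was 0.03 without 8276OV replicate 3, and below 0 when any other library was left out, down to −0.21 without 8276OV replicate 1; its direction rested on 8276OV replicate 3.

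**Figure D4:**
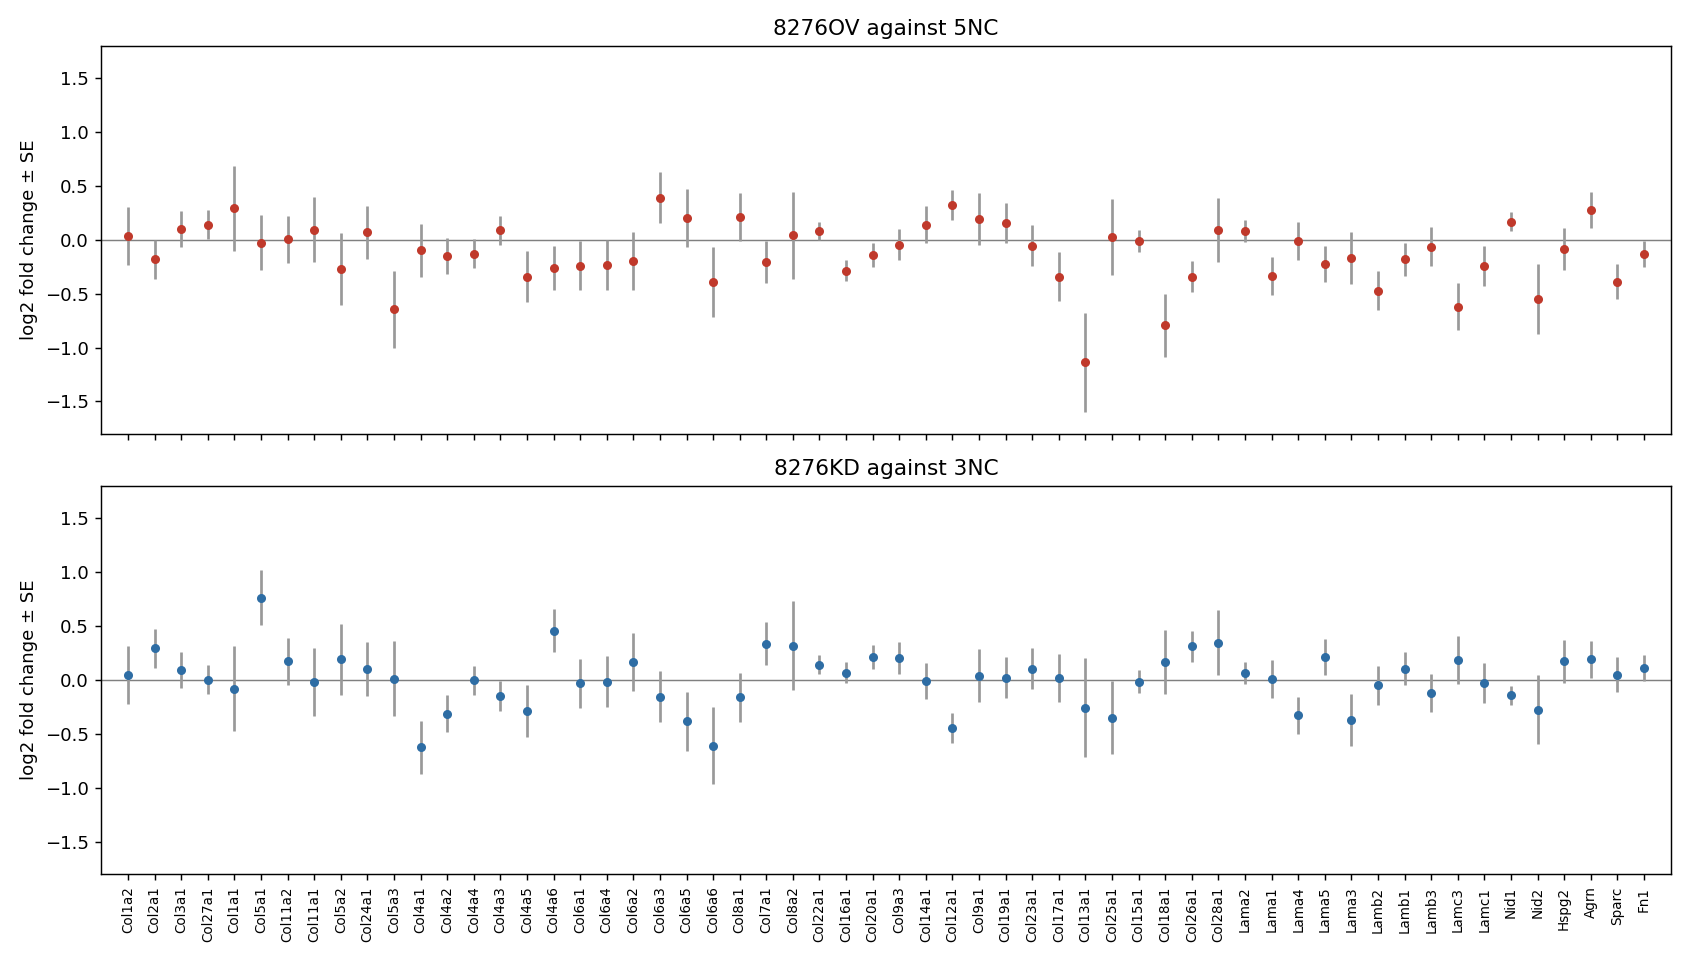
Log2 fold change ± SE of 58 tested members, ordered by role, for 8276OV against 5NC (top) and 8276KD against 3NC (bottom), with a line at 0. Most values lie within 0.5 of 0; Col13a1 (−1.14) and Col18a1 (−0.79) are lowest at the top, and Col5a1 (0.76) is highest and Col4a1 (−0.63) lowest below.

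The inhibiting virus likewise gave no called member. In 8276KD against 3NC, edgeR called 0 of 59 members, against 29 of all genes (0.178%), 4 of them higher and 25 lower. At an unadjusted p under 0.05 there were 3 members higher (5.08%, against 2.53% of all genes) and 2 lower (3.39%, against 3.47%), and DESeq2 and limma called 0 members. Without 3NC replicate 2 there were 0 higher and 1 lower, and without 8276KD replicate 3 there was 1 of each. Fold changes were above 0 for 33 members (55.9%, against 49.5% of all genes) and below 0 for 26 (44.1%, against 50.5%), with a median of 0.02 over members and −0.002 over all genes. Against 5NC 36 members were below 0 and 23 above, with a median of −0.04 over members, and at an unadjusted p under 0.05 there were 3 higher and 5 lower.

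Col12a1 had the smallest p, with 1.32, 1.65 and 1.29 FPKM in 8276KD and 1.64, 2.15 and 1.62 FPKM in 3NC (log2 fold change −0.45 ± 0.14, adjusted p = 0.559 by edgeR). Col5a1, a chain that helps start type I collagen fibrils, had 1.79, 2.24 and 1.33 FPKM in 8276OV, 2.35, 2.96 and 2.58 in 8276KD, 1.88, 1.17 and 2.52 in 5NC, and 1.26, 1.42 and 1.98 in 3NC. All 3 of its 8276KD libraries lay above 3NC, at a log2 fold change of 0.76 ± 0.25 (adjusted p = 0.646 by edgeR). Col4a1 averaged 2.72 ± 0.187 FPKM in 8276KD and 4.23 ± 0.183 FPKM in 3NC (SD, n = 3 each), a log2 fold change of −0.63 ± 0.24 (adjusted p = 0.764 by edgeR). In a fit of these 2 groups alone, which takes the spread from these libraries alone, Col4a1 was the 1 member called (−0.62, adjusted p = 0.0423 by edgeR, among 38 of 15879 genes, 0.239%); with the replicate block its adjusted p was 0.0528. Col4a2, its partner chain, was lower in all 3 8276KD libraries too (−0.31 ± 0.17, adjusted p = 0.764).

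Col4a6, the X-linked type IV chain, had 0.59, 0.6 and 0.47 FPKM in 8276OV, 0.8, 0.73 and 1.04 in 8276KD, 0.78, 0.6 and 0.65 in 5NC, and 0.72, 0.49 and 0.66 in 3NC (0.46 ± 0.2 in 8276KD against 3NC, and 0.29 without 8276KD replicate 3). Lama4, the laminin alpha chain of vessels, had 0.89, 0.68 and 0.69 FPKM in 8276OV, 0.7, 0.77 and 0.73 in 8276KD, 0.75, 0.63 and 0.92 in 5NC, and 0.96, 0.88 and 0.93 in 3NC (−0.33 ± 0.17 in 8276KD against 3NC). Its 8276KD libraries all lay below those of 3NC. Col26a1 was 0.31 ± 0.14 in this comparison, with no overlap. Against 5NC in place of 3NC, Col4a1 was −0.37, Lama4 −0.04 and Col26a1 0.04. By CPM, 4 members had 8276KD libraries wholly above 3NC (6.78%, against 7.72% of all genes): Col5a1, Col26a1, Col22a1 and Hspg2. Another 6 lay wholly below (10.2%, against 8.74% of all genes): Col12a1, Col4a1, Lama4, Col4a2, Col6a6 and Col6a5. In FPKM the Col12a1 and Col6a6 values of these groups overlapped. Of the type IV chains 5 of 6 and of the type VI chains 5 of 6 had fold changes below 0, against 50.5% of all genes. Of the fibrillar chains 9 of 11 had them above 0, against 49.5%. These counts include values near 0, such as Col4a4 (−0.004), Col6a4 (−0.02), Col27a1 (0.004) and Col5a3 (0.01). The summed level of 10 endothelial markers was 18.5 to 20.9 FPKM in 8276KD and 14.8 to 16 FPKM in 3NC; its part in these values was not tested.

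The 2 control groups were set against each other, since both treated comparisons share their libraries with this one. In 5NC against 3NC edgeR called 0 of 59 members, against 59 of all genes (0.362%). At an unadjusted p under 0.05 there were 4 members higher (6.78%, against 5.94% of all genes) and 3 lower (5.08%, against 6.15%); limma called 0 members and DESeq2 called 1 (148 of all genes, 0.907%). Fold changes were above 0 for 42 members (71.2%, against 51.9% of all genes) and below 0 for 17 (28.8%, against 48.1%), with medians of 0.11 over members and 0.01 over all genes.

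Col12a1 (chr9:79598987-79721141 in mm10) was that 1 member. It had 1.55, 1.31 and 1.63 FPKM in 8276OV, 1.32, 1.65 and 1.29 in 8276KD, 1.2, 1.1 and 1.36 in 5NC, and 1.64, 2.15 and 1.62 in 3NC. All 5NC libraries lay below 3NC, at a log2 fold change of −0.62 ± 0.14, with an adjusted p of 0.0962 by edgeR and 0.0125 by DESeq2. By group mean both treated groups lay between the controls, so the sign of each treated comparison turned with the control: 8276OV was 0.33 against 5NC and −0.29 against 3NC, and 8276KD was −0.45 against 3NC and 0.17 against 5NC, all on the log2 scale. Nid1 showed the same order, with 3.96 ± 0.242 FPKM in 5NC and 4.86 ± 0.403 FPKM in 3NC (−0.32 ± 0.09, adjusted p = 0.229 by edgeR). Nid1 in 8276OV was 0.17 against 5NC and −0.15 against 3NC. Col27a1, a fibrillar collagen, had 4.31, 4.37 and 3.02 FPKM in 8276OV, 4.27, 4.37 and 4.87 in 8276KD, 3.22, 4.08 and 3.63 in 5NC, and 4.61, 4.24 and 5.36 in 3NC (−0.33 ± 0.13 in 5NC against 3NC, and −0.2 without 3NC replicate 3).

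On the higher side Lama1 (0.42 ± 0.18), Lamc3 (0.52 ± 0.22) and Sparc (0.38 ± 0.16) had the smallest p, at adjusted p = 0.391, 0.395 and 0.401 by edgeR. Without 5NC replicate 1 their log2 fold changes were 0.16, 0.18 and 0.1, and 0 members in place of 4 were higher at an unadjusted p under 0.05; there were 9 without 5NC replicate 2, 7 without 5NC replicate 3 and 1 without 3NC replicate 2. Agrn, which clusters receptors at the nerve-muscle junction, was the fourth, at 1.33 ± 0.0404 FPKM in 5NC and 1.02 ± 0.15 FPKM in 3NC (0.37 ± 0.17, adjusted p = 0.413 by edgeR), and 0.33 to 0.47 when any 1 library was left out. By CPM, members with 5NC wholly above 3NC were 7 (11.9%, against 8.13% of all genes): Lama1, Lama5, Lamb2, Agrn, Hspg2, Col26a1 and Col7a1. In FPKM the Col7a1 values of these groups overlapped. Those wholly below were Col12a1, Nid1 and Col27a1 (5.08%, against 8.72%). All 10 Sertoli markers had fold changes above 0 in this comparison, with a median of 0.33, and their part in the laminin values was not tested.

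**Figure D5:**
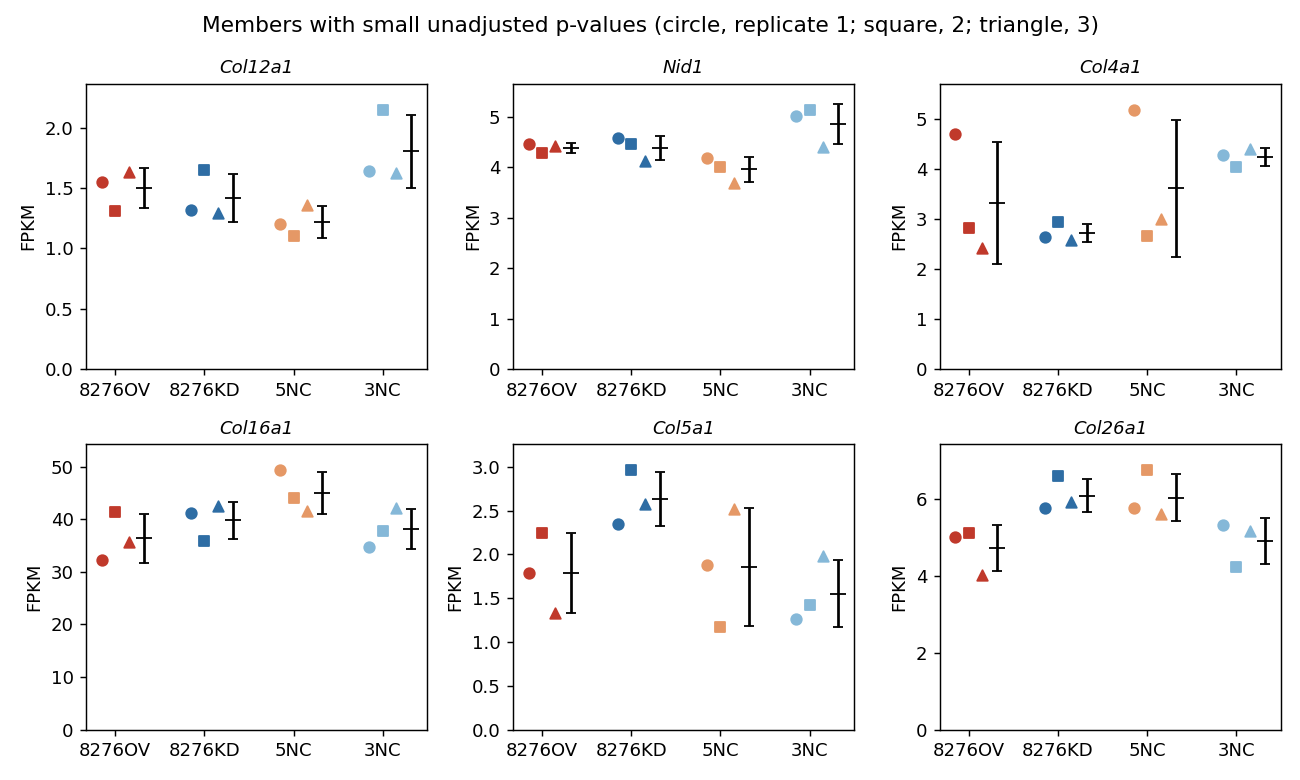
FPKM of 6 members with small unadjusted p-values in each library by group (circle, replicate 1; square, 2; triangle, 3), with bars for the mean ± SD of 3 libraries. By group mean Col12a1 and Nid1 are lowest in 5NC and highest in 3NC, with both treated groups between, and Col4a1 in 8276KD lies below 3NC.

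The difference between the effect of 8276OV over 5NC and that of 8276KD over 3NC was tested in the same fit. It called 0 of 59 members, against 10 of all genes (0.0613%), and DESeq2 and limma called 0 members. At an unadjusted p under 0.05 there were 2 members above 0 (3.39%, against 8.73% of all genes) and 7 below (11.9%, against 6.96%). Over all 59, 24 lay above 0 (40.7%, against 50.0% of all genes) and 35 below (59.3%, against 50.0%), with a median of −0.16 over members and 0.00007 over all genes. Leaving out 1 library gave 1 to 4 members above and 2 to 9 below at that p. Col12a1 had the smallest p (0.77 ± 0.19, adjusted p = 0.216 by edgeR), followed by Col26a1 (−0.66 ± 0.2, adjusted p = 0.257). The others below 0 were Lamc3 (−0.81), Col4a6 (−0.72), Col16a1 (−0.35), Col18a1 (−0.97), Col20a1 (−0.35) and Col5a1 (−0.79) and Nid1 (0.31) was the other above 0. Col6a3 (0.55) did not pass that p. Without 5NC replicate 1 Col18a1 was −0.39 and Lamc3 −0.47, without 8276OV replicate 1 Col6a3 was 0.29, and without 5NC replicate 3 Col5a1 was −0.49. With the controls exchanged, the differences of Col12a1, Nid1, Col6a3, Lamc3, Col16a1 and Col18a1 took the other sign. Over all 59 members, 39 then lay above 0 and 20 below, with a median of 0.09. Of all genes, 48.8% lay below 0 in that setting. The lean of the members thus turned with the choice of control, which is inferred.

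Genes that make, cross-link, cut or bind this matrix were read in 7 lists, and 1 gene in them was called, among 36 tested matrix receptors. Of all genes, 29 (0.178%) were called in 8276KD against 3NC and 59 (0.362%) in 5NC against 3NC. Itga5, an integrin chain that binds fibronectin, averaged 0.703 ± 0.232 FPKM in 8276OV, 0.46 ± 0.0917 FPKM in 8276KD, 0.653 ± 0.291 FPKM in 5NC and 2.01 ± 0.137 FPKM in 3NC (SD, n = 3 each). It fell by 2.12 on the log2 scale in 8276KD against 3NC (SE 0.28, adjusted p = 0.0042 by edgeR) and by 1.65 in 5NC against 3NC (SE 0.27, adjusted p = 0.0154), comparisons that share the 3NC libraries. Its ligand Fn1 was 0.11 ± 0.12 and 0.15 ± 0.12 there. Of 36 tested matrix receptors, 17 had fold changes above 0 and 19 below 0 in 8276KD against 3NC, and 18 and 18 in 8276OV against 5NC. Of all genes, 50.5% and 50.3% lay below 0 in these comparisons.

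No gene of the other 6 lists was called. Thbs1, thrombospondin, among 47 tested matrix glycoproteins and proteoglycans, came nearest, at 0.547 ± 0.0666 FPKM in 8276KD and 1.12 ± 0.165 FPKM in 3NC (−1.02 ± 0.2, adjusted p = 0.0917 by edgeR), and Sparcl1, a relative of Sparc, was −0.41 in 8276OV against 5NC. Among 8 protease inhibitors Timp3 was −0.59 in 8276KD against 3NC, at an adjusted p of 0.4 by edgeR. Among 19 tested matrix proteases Adamts5 was 0.85 and Plau −0.85 in 8276KD against 3NC, at adjusted p = 0.304 and 0.349. Ctgf (0.75) and Cyr61 (1.29), matricellular genes of the TGF-beta list of 23 tested genes, were at adjusted p = 0.187 and 0.351 in 8276KD against 3NC.

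Of 21 tested genes for collagen folding and secretion, 14 had fold changes below 0 in 8276OV against 5NC. In 8276KD against 3NC the split was the same, with 14 below 0. Of all genes, 50.3% and 50.5% lay below 0 in these comparisons. Plod3, a lysyl hydroxylase of collagen, averaged 3.86 FPKM in 8276OV and 5.04 FPKM in 5NC (−0.37, adjusted p = 0.405 by edgeR). Sec23a, of the vesicle coat, was −0.22 in 8276KD against 3NC (adjusted p = 0.648 by edgeR). Of 16 genes for collagen processing and cross-linking, 9 were below 0 in 8276OV against 5NC, among them Furin (−0.38, adjusted p = 0.419) and Pcolce, the procollagen peptidase enhancer (−0.44, adjusted p = 0.48).

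Lists of cell type markers held no called gene in the treated comparisons. Of epididymis and fat markers, 2 of 7 were called by edgeR in 5NC against 3NC, both higher (59 of all genes, 0.362%). In 8276OV against 5NC 5 of them were below 0 and 2 above, with a median of −0.75. Endothelial markers in 8276OV against 5NC were 6 below 0 and 4 above, with a median of −0.15. Of all genes, 50.3% lay below 0 in that comparison, and 49.5% lay above 0 in 8276KD against 3NC. In 8276OV against 5NC, 9 of 9 peritubular myoid markers (median −0.47), 9 of 10 Sertoli markers (−0.23), 7 of 7 Leydig markers (−0.5) and 6 of 7 stromal fibroblast markers (−0.16) had fold changes below 0, and 9 of 9 macrophage markers (0.59) had them above 0. Summed, peritubular myoid markers were 258 to 270 FPKM in 8276OV and 288 to 305 FPKM in 5NC, Leydig markers 1829 to 2229 and 2126 to 4386 FPKM, and macrophage markers 61.7 to 134 and 47 to 75.6 FPKM. In 8276KD against 3NC, 7 of 9 peritubular myoid, 7 of 10 Sertoli and 10 of 10 endothelial markers were above 0, with medians of 0.05, 0.14 and 0.24. The part of these cells in the member values was not tested.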

How the data were processed

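RNA sequencing of total RNA gave 12 libraries, and the authors deposited for each an estimated count (expected reads per gene, per the file headers; 88% whole within 1e-06) and a normalised value. The unit of the deposited normalised values was inferred to be FPKM, since they follow reads over gene length and library total. The genome build was mm10, per the submitters' processing notes; the aligner, the counter, the annotation and the strandedness are not stated in those sources. A further 18 per-sample columns of the table match no library analysed here and were left out.

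Estimated counts were rounded and tested with edgeR 4.0.16 in R 4.3.3: TMM, filterByExpr (minimum count 10, minimum total 15), 1 robust quasi-likelihood fit of all 4 groups without covariates, and Benjamini-Hochberg adjustment over 16320 genes, called under 0.05. The common biological coefficient of variation was 0.13. The SE, an approximation, is the size of the fold change divided by the root of F; the prior count was 0.125. Overlap between groups was judged on CPM. The fit was tested on simulated data. The depth limits genes with few reads: 3 reads correspond to 0.183 to 0.194 CPM, covering counting error only.

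Alternatives were DESeq2 1.42.0, limma 3.58.1 on log2(FPKM + 0.1), relative log expression factors, other filters (none, or 1 CPM in 3 libraries), 2-group fits, a replicate block, the other control group and leaving out each library. Deviations of libraries with the same number correlated between 8276OV and 5NC at r = 0.165, 0.149 and 0.109 across genes. These were not set against libraries with different numbers, so they do not settle whether libraries were paired. The labels only share numbers, and the block stayed an alternative.

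Members, roles, gene lists and the naming rule were chosen with earlier results of these data known. Named in full are, per comparison, the 3 members of smallest p in each direction and, per role, the 2 of highest mean FPKM; from a companion list, called genes or otherwise the 2 of smallest p against a control. Other members were named after their values were seen. A member and a gene of a companion list are not reported here; counts include them. Gene positions and exon overlaps come from RefSeq and GENCODE tables of the same build.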

Additional observations from a re-analysis of the deposited data

How the results depend on the processing

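Over 34 values of named members and up to 21 other settings each, 684 values were recomputed. No named member was called in the main fit. A fold change between 2 groups hardly moves when a library of neither group is left out, so those settings test little. Of the 684 values, 672 kept their direction and stayed uncalled, 3 became significant and 9 changed sign. The 3 were Lamb2 in 8276OV against 5NC with a replicate block in the 2 groups (−0.46), Col4a1 in 8276KD against 3NC in the fit of the 2 groups (−0.62) and Col12a1 in 5NC against 3NC with DESeq2 (−0.62), so members called there were 1 each in place of 0. All 9 sign changes came from setting a treated group against the other control: in 8276OV, Col12a1 −0.29 and Nid1 −0.15; in 8276KD, Col12a1 0.17; in the difference of effects, Col12a1 −0.47, Col16a1 0.0513, Col18a1 0.22, Col6a3 −0.0274, Lamc3 0.24 and Nid1 −0.33, where the median over members was 0.0907. For each gene, the exchange adds the log2 value of 5NC against 3NC to that of 8276OV and takes it from that of 8276KD. It adds that value 2 times to the difference. What set the 2 control groups apart was not tested. Genes called moved to 52, 8 and 25 with the other control for 8276OV, 8276KD and the difference, to 215, 77 and 94 with the block in 2 groups for 8276OV against 5NC, 8276KD against 3NC and 5NC against 3NC, to 50, 71, 148 and 96 with DESeq2 for these and the difference, and to 16, 31 and 6 with limma for the last 3.

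Leaving out 1 library at a time, members called stayed at 0 in each comparison. Genes called ran from 0 to 5 for 8276OV against 5NC, 10 to 34 for 8276KD against 3NC, 16 to 76 for 5NC against 3NC and 4 to 23 for the difference. Medians over members ran from −0.21 to 0.0333, 0.015 to 0.0484, 0.0717 to 0.222 and −0.252 to −0.0364 in the same order. Same-numbered libraries correlated at 0.008 to 0.056 for 8276KD with 3NC and −0.034 to 0.021 for 5NC with 3NC. The labels give no pairing beyond the number. In the fits of 2 groups the block took the call of Col4a1 in 8276KD against 3NC (adjusted p of 0.0423 without it and 0.0528 with it, by edgeR); apart from this and Lamb2 it changed no member call. With 3 libraries a group, members with few reads, such as Col13a1, are measured with wide error.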
